A study of Arabidopsis with 2 samples.

Results

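Expansins and xyloglucan endotransglycosylases are the main families of wall-loosening proteins in growing plant cells, and their transcripts were compared here between wild-type embryos and embryos that lack both CUC1 and CUC2. The members were the gene probes whose array description holds the word expansin or the words xyloglucan endo. This rule took 63 of 21500 gene probes, with 30 expansins and 33 xyloglucan endotransglycosylases, which are called XTHs below. Of the 63 genes, 62 matched the RefSeq gene table, and the names of the members come from it. The 33 XTH probes cover XTH1 to XTH33, and the expansins comprise 25 alpha-expansins (EXPA), 4 beta-expansins (EXPB) and AT1G65685, which had no match and is given by its locus.

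A growing plant cell is held in by cellulose microfibrils that are tethered by xyloglucan and other polysaccharides. Expansins let these polymers slip past each other in acidic walls without cutting them. XTHs cut a xyloglucan chain and join the new end to another chain, and some members only hydrolyse it. Many members respond to auxin, brassinosteroid, touch or light in other tissues, and shoot organ boundaries are known as places where cells grow slowly.

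RNA came from about 100 excised embryos of each genotype, recorded as torpedo stage. The wild type was Landsberg erecta (Ler), and the cuc1-1 cuc2-1 double mutant embryos came from parents recorded as cuc1-1 cuc2-1/+. The same pair of RNA extracts was hybridized to 2 arrays with the dyes exchanged. Experiment 1 paired mutant cRNA in Cy5 with Ler cRNA in Cy3, and experiment 2 was the reverse. Each genotype thus has 1 biological replicate, and the difference between the experiments measures technical error only. In RNA from whole embryos, fewer cells of a type and less RNA per cell cannot be told apart.

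All ratios are log2 of cuc1 cuc2 over Ler after dye normalization, so values below 0 stand for a weaker mutant signal relative to the bulk of the probes. The error of a single ratio is that of the scanner software's error model, and the 95% interval of a mean combines both errors. In the check of the labels, STM, which maintains the shoot meristem and depends on the CUC genes, had log2 ratios of -2.18 in experiment 1 and -1.99 in experiment 2. CUC2 had log2 ratios of -0.62 and -0.999, and CUC1 had 0.021 and -0.11. The transcript of CUC1 did therefore not separate the genotypes. Every channel detected all 6 embryo markers, 2 of 6 endosperm markers and 4 of 6 seed coat markers. The endosperm genes AGL62 and ZOU and the seed coat genes TT2, TT10, MUM4 and TTG2 were thus detected, and their mean log2 ratios lay between -0.11 and 0.034. The embryo markers had a median of 0.033, with the seed storage protein gene CRA1 lowest at -0.26 and the oil body gene OLEO1 highest at 0.60, and OLEO1 alone of these 6 met the call rule given below. The part of embryo age in the ratios was not tested. The endosperm genes FWA, MEA and PHE1 and the seed coat genes BAN and TT12 were not well above background in any channel, and the endosperm gene FIS2 was so in 3 channels. The part of RNA from these tissues in the ratios was not tested.

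Most of the wall-loosening genes were detected in both genotypes. The software classed 22 of 30 expansins and 25 of 33 XTHs as well above background in all 4 channels, which is 73.3% and 75.8% against 84.2% of all gene probes. A further 5 members were not well above background in any channel. They were EXPA2, which acts in germinating seeds, EXPA16, EXPA23, XTH30 and XTH33. The other 11 members passed in some channels only. In 5 of these, EXPA22, EXPA24, XTH17, XTH25 and XTH31, the passing channel was Cy5 on both arrays, whichever genotype carried it. In XTH2 and XTH32 it was Cy3 on both arrays. No member was well above background in 1 genotype on both arrays and dim in the other on both. This pattern was shown by 43 gene probes (0.2%) for cuc1 cuc2 and by 7 (0.033%) for Ler. With shares this small, the absence of such members is close to the background. EXPA25 and XTH26 passed only in the cuc1 cuc2 channel of experiment 1, and against the detection limit of Ler their signal gave no fold above 1. None of the 63 spots was saturated or marked as an outlier.

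Neither family contained a gene that met the selection rule of the study, a deposited p-value under 0.01 with a lower ratio in both experiments. The number was 0 of 30 expansins and 0 of 33 XTHs, beside 0.242% of all gene probes. The mirror of the rule called 0 expansins and 0 XTHs higher, beside 0.502% of all gene probes. These percentages correspond to less than 1 gene in a list of this length, so 0 calls is close to the background. With a limit of 0.05 the numbers were also 0 in both directions, beside 0.474% lower and 1.1% higher genes. A log2 ratio beyond 0.5 in both experiments was not reached by any member either, beside 0.344% lower and 0.712% higher of all gene probes. These shares too correspond to less than 1 gene in a list of this length. The deposited p-value was under 0.05 in a single experiment for 2 members, XTH16 and EXPA5, both in experiment 2. This p-value concerns the extracts on a single array, and variation between batches of embryos does not enter it.

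The precision of the ratio between this pair of extracts differs between members. Variation between batches of embryos does not enter the intervals. Among the 47 members measured in all 4 channels, the mean log2 ratio lay between -0.40 for XTH16 and 0.29 for EXPA5. The error of the mean ranged from 0.12 to 0.81, with a median of 0.24. For 36 of the 47 genes the 95% interval lay inside a change of 2-fold in either direction, and for the other 11 it did not. The share was 17 of 22 for the expansins and 19 of 25 for the XTHs, against 87.9% of all gene probes in all 4 channels. For these 11, among them EXPB4, EXPA7, XTH12 and XTH14, a change of 2-fold in at least one direction lay inside the interval and was not detectable.

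**Figure D1:**
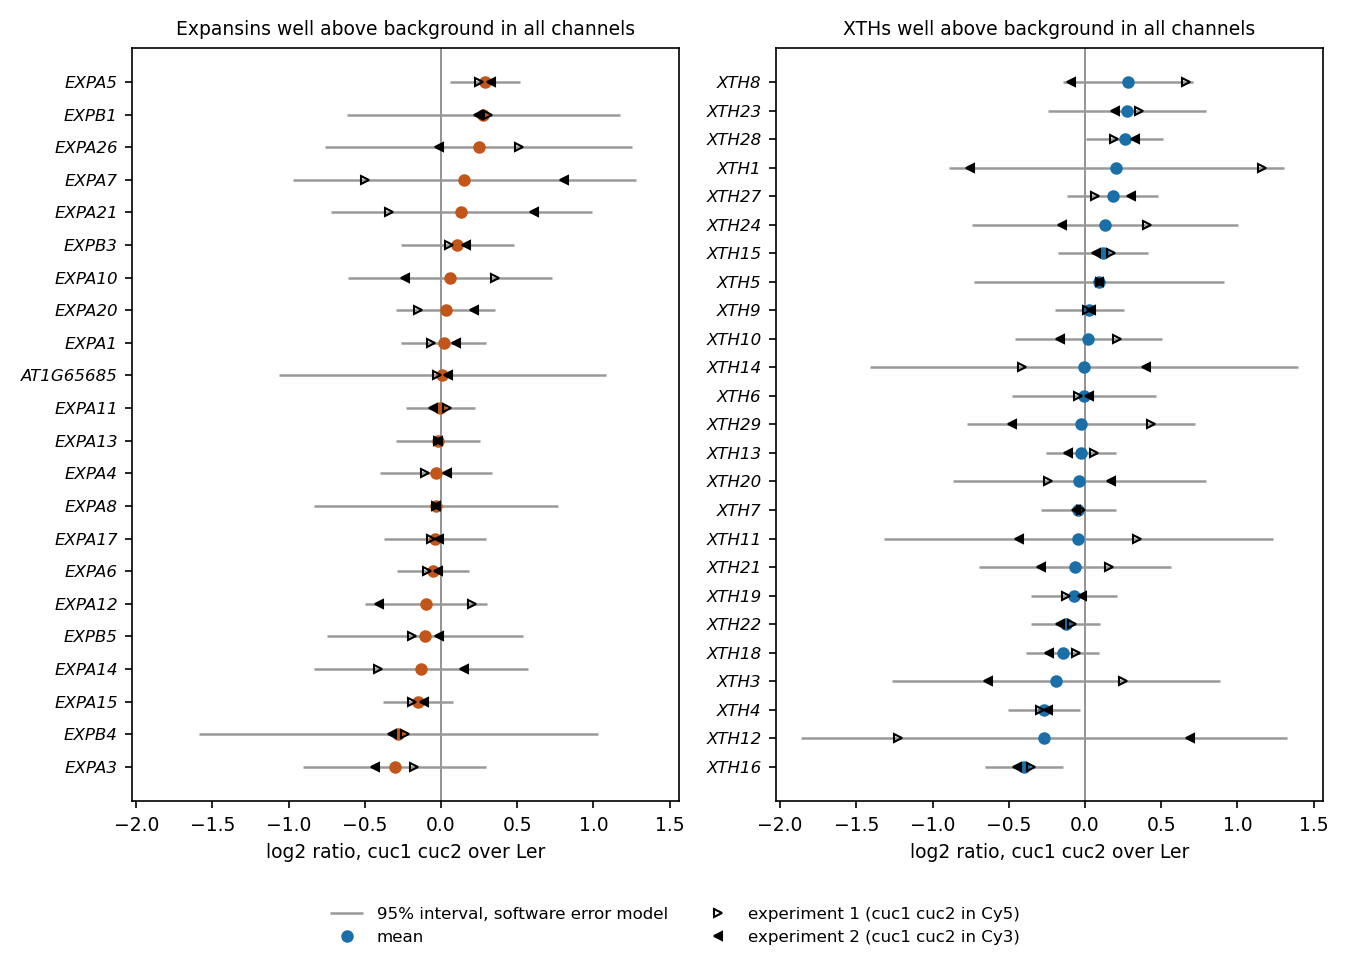
Log2 ratio of cuc1 cuc2 over Ler for each expansin (left) and XTH (right) that was well above background in all 4 channels; circles are means of both experiments, triangles are the single experiments and grey lines are 95% intervals from the software's errors. The means lie between -0.40 for XTH16 and 0.29 for EXPA5, and the intervals of 4 genes (XTH16, XTH4, XTH28 and EXPA5) do not reach 0. Of all gene probes in all 4 channels, 2.8% have an interval entirely below 0 and 4.67% entirely above it.

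Of the expansins, EXPA5 (AT3G29030), an alpha-expansin linked to growth in response to brassinosteroid, had the highest mean ratio in all 4 channels. Experiment 1 gave dye-normalized signals of 7493 (cuc1 cuc2) and 6294 (Ler), and experiment 2 gave 9213 and 7357. The signal of the mutant was the higher one in both experiments, by log2 ratios of 0.25 and 0.32, each with an error of 0.17. The mean of 0.29 corresponds to a signal 1.22-fold higher in cuc1 cuc2, with a 95% interval from 0.059 to 0.52. This interval does not reach 0, which was the case for 1 of 22 expansins (4.55%) in the higher direction and for 4.67% of the gene probes in all 4 channels. The deposited p-values of EXPA5 were 0.129 and 0.0497. Its ratio lay between 0.27 and 0.29 when the spots were corrected and normalized in 4 other ways.

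At the other end of the expansins stood EXPA3 (AT2G37640), with a mean log2 ratio of -0.31 (error 0.31) from -0.18 and -0.44. The mutant was lower in both experiments, with a signal of 296 against 335 and of 293 against 396, but the mean did not exceed its error. EXPA15 (AT2G03090) was measured with a smaller error of 0.12. Its log2 ratios were -0.19 and -0.11, from signals of 4731 against 5394 and 5905 against 6380, and the mean of -0.15 has an interval from -0.38 to 0.079. EXPA14 (AT5G56320), which has a role in lateral roots, had log2 ratios of -0.41 and 0.15 that lie on different sides of 0. The same holds for EXPA7 (AT1G12560), an expansin of root hairs, with -0.50 and 0.81, and for EXPA21 (AT5G39260), with -0.34 and 0.61. EXPA26 (AT5G39290) had 0.51 in experiment 1 and -0.013 in experiment 2. For these 4 genes the experiments differed from each other by more than the mean differed from 0, which follows from the opposite signs. The same held for 31 of the 47 members of both families in all 4 channels.

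The beta-expansins form the subfamily that includes pollen allergens of grasses, and all 4 were measured in every channel. Each had the same sign in both experiments, with 2 above 0 and 2 below. EXPB1 (AT2G20750) had log2 ratios of 0.31 and 0.25, and EXPB3 (AT4G28250) had 0.051 and 0.16. EXPB4 (AT2G45110) had -0.23 and -0.32, and EXPB5 (AT3G60570) had -0.19 and -0.015. Their errors of the mean, 0.19 to 0.67, were larger than each mean, and the median of the subfamily was 0.0023.

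Between these genes stood 12 expansins in all 4 channels, EXPB3 and AT1G65685 among them, that had mean log2 ratios between -0.10 and 0.11. Several of them are known from elongating leaves, roots and guard cells. EXPA1 (AT1G69530), which loosens the walls of guard cells, had 0.017 (error 0.14), and EXPA10 (AT1G26770), which promotes leaf growth, had 0.060 (error 0.34). EXPA11 (AT1G20190), measured with the smallest error of the family, had signals of 8047 against 7824 and 5187 against 5369 and a mean log2 ratio of -0.0045 (error 0.12). Its 95% interval extends from -0.23 to 0.22. EXPA6 (AT2G28950) and EXPA13 (AT3G03220) were also near 0, with means of -0.054 and -0.021 and errors of 0.12 and 0.14.

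The lowest mean of either family belonged to XTH16 (AT3G23730). Its signals were 1558 (cuc1 cuc2) and 1990 (Ler) on the array of experiment 1 and 1321 and 1801 on the other. The mutant was the lower one in both, with log2 ratios of -0.35 (error 0.19) and -0.45 (error 0.18). The mean of -0.40 is a 1.32-fold weaker signal in the mutant, and its 95% interval extends from -0.65 to -0.15. XTH4 (AT2G06850), also named EXGT-A1, gave signals of 2306 against 2824 and of 2571 against 3045 in the same order of genotypes. Its log2 ratios of -0.29 and -0.24 average -0.27, with an interval from -0.51 to -0.030. XTH16 and XTH4 were the 2 of 25 XTHs (8%) with an interval entirely below 0, against 2.8% of the gene probes in all 4 channels. The deposited p-values were 0.058 and 0.0126 for XTH16 and 0.0947 and 0.147 for XTH4. With the alternative corrections XTH16 lay between -0.34 and -0.28 and XTH4 between -0.25 and -0.21.

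XTH28 (AT1G14720), which is required for the growth of stamen filaments, was the 1 XTH (4%) with an interval entirely above 0, against 4.67% of the gene probes in all 4 channels. The mutant signal exceeded that of Ler on both arrays, at 1877 against 1645 and at 1970 against 1568. The log2 ratios were 0.19 and 0.33, and the mean of 0.26 has an interval from 0.010 to 0.51. It lay between 0.18 and 0.23 under the other settings. XTH27 (AT2G01850), which acts in the veins of leaves, lay on the same side of 0, with 0.064 and 0.30 and a mean of 0.18 (error 0.15). XTH23 (AT4G25810) had 0.35 and 0.19, and its mean of 0.27 was about as large as its error of 0.26. XTH8 (AT1G11545) had the highest mean of the XTHs in all 4 channels, 0.29 (error 0.22), but only in experiment 1 was the mutant signal higher, at 607 against 383. In experiment 2 it was 523 against 558.

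Large single ratios among the XTHs did not repeat when the dyes were exchanged. XTH12 (AT5G57530) had a log2 ratio of -1.23 in experiment 1 and 0.69 in experiment 2, from signals of 71.1 against 167 and 149 against 92.4. XTH1 (AT4G13080) had 1.16 and -0.75, and XTH3 (AT3G25050), an enzyme that can also act on cellulose, had 0.25 and -0.63. The signs of each of these genes were opposite in the experiments. The errors of the mean were 0.81 for XTH12, 0.56 for XTH1 and 0.55 for XTH3. Whether the dyes or noise gave the opposite signs was not tested. XTH18 (AT4G30280), which acts in root growth, had a smaller error and log2 ratios of -0.056 and -0.24.

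The other 15 XTHs in all 4 channels had mean log2 ratios from -0.13 to 0.13. XTH9 (AT4G03210), which is known from shoot apices, gave signals of 43712 against 43272 and 53914 against 52420. Its mean log2 ratio was 0.028 with an error of 0.12. The 95% interval from -0.20 to 0.25, which holds technical error only, spans 1.15-fold lower to 1.19-fold higher signals. XTH22 (AT5G57560), the touch-induced gene TCH4, had log2 ratios of -0.087 and -0.17 and a mean of -0.13 (error 0.12). XTH24 (AT4G30270), which was first isolated as MERI5B from meristem tissue, had 0.41 and -0.15, with a mean of 0.13 (error 0.45). XTH15 (AT4G14130), a gene of shade-induced growth, had a mean of 0.12 (error 0.15), and XTH19 (AT4G30290) and XTH7 (AT4G37800) had -0.071 and -0.043.

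By their place in the family, the XTHs fall into group 1 (XTH1 to XTH11), group 2 (XTH12 to XTH26) and group 3 (XTH27 to XTH33). The median log2 ratio was -0.0080 over the 11 probes of group 1 and -0.036 over the 15 probes of group 2. It was 0.18 over the 7 probes of group 3, to which XTH31 and XTH32, enzymes that hydrolyse xyloglucan, belong. Only 3 of these 7 probes were measured in all 4 channels, namely XTH27, XTH28 and XTH29, with means of 0.18, 0.26 and -0.024. The median of group 3 was 0.43 in experiment 1 and -0.18 in experiment 2, and after normexp correction with loess it was 0.050.

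Of the 47 members in all 4 channels, 14 were lower and 9 were higher in cuc1 cuc2 in both experiments, beside 26% and 26.1% of the 18102 gene probes in all 4 channels. The signs were opposite for 24 members, 11 expansins and 13 XTHs, beside 47.9% of the gene probes in all 4 channels. Across the 47 genes the correlation of the log2 ratios between the experiments was -0.53 (Pearson) and -0.29 (Spearman), compared with -0.020 and 0.025 across the 18102 gene probes. It was 0.73 and 0.57 across the 21 members whose error of the mean was under 0.2, compared with 0.51 and 0.38 across the 12418 gene probes within the same limit. These coefficients describe genes that share both extracts and both arrays, and genes are not independent replicates. Within the same limit of error they were 0.83 and 0.85 across 11 XTHs and 0.58 and 0.32 across 10 expansins.

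**Figure D2:**
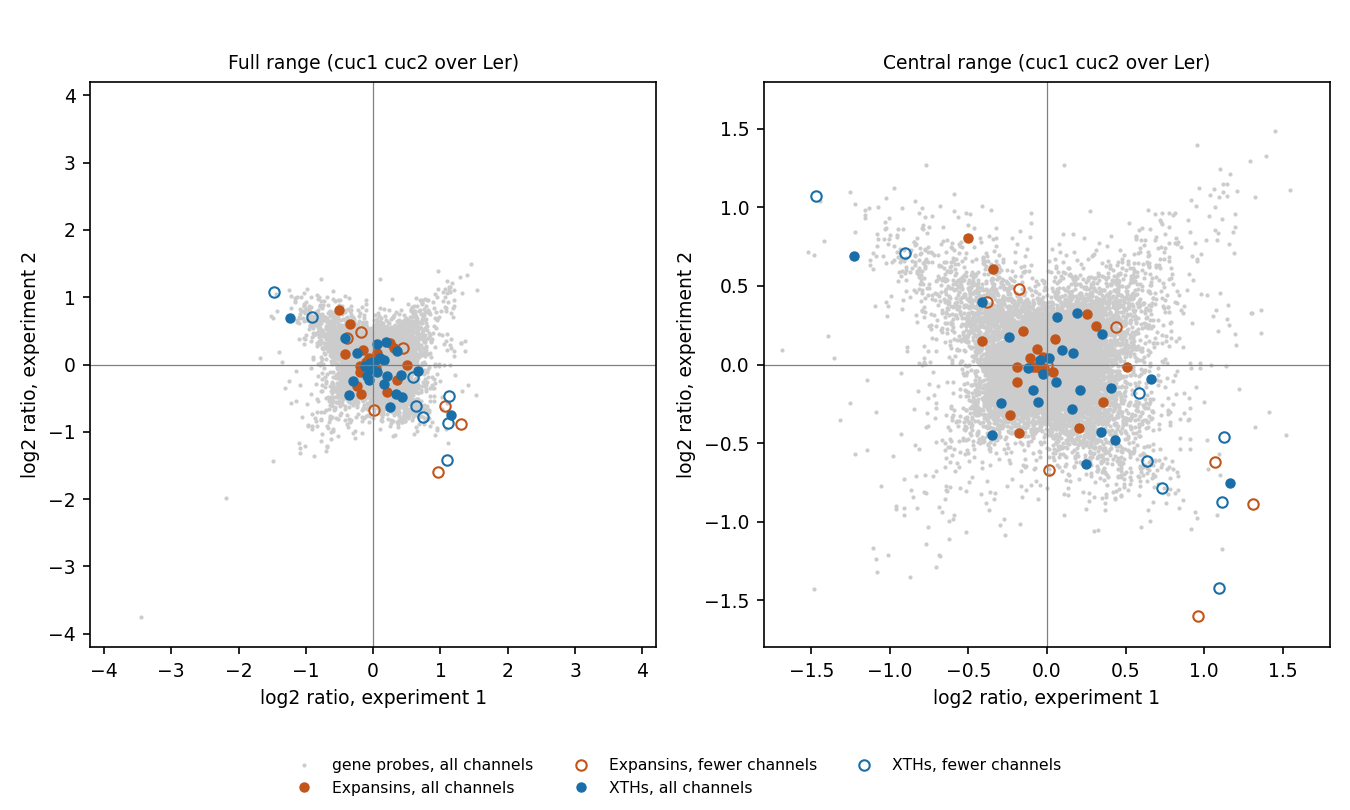
Log2 ratio of cuc1 cuc2 over Ler in experiment 1 (horizontal) and experiment 2 (vertical), over the full range (left) and the central range (right); grey points are all gene probes in all 4 channels, filled circles the members measured there and open circles the members with fewer channels. No member comes near the isolated points at the lower left, the one near -2 being STM (-2.18 and -1.99), and most open circles lie where the experiments have opposite signs.

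The part of a ratio that both arrays share when it is read as Cy5 over Cy3 had a median size of 0.082 among the 47 members and of 0.78 among the 16 with fewer channels. Over all gene probes these values were 0.072 and 0.41. The experiments had opposite signs for 14 of the 16 dim members, against 59.9% of such probes overall. The other two were EXPA23, above 0 in both, and EXPA16, which the software set to a ratio of 0 on both arrays. The share over all such probes includes 912 with a ratio of 0 in 1 experiment or both, which cannot have opposite signs. Of all 3398 such probes, 1686 were not well above background in any channel, against 5 of the 16 members. The sets thus differ in composition, and the values above are not a like comparison. EXPA24 (AT5G39310) had 1.31 in experiment 1 and -0.89 in experiment 2, and EXPA25 (AT5G39300) had 0.96 and -1.60. XTH2 (AT4G13090) went the other way, with -1.47 and 1.07. EXPA9 (AT5G02260) and EXPA18 (AT1G62980), the latter an expansin of root hairs, passed in 3 channels, and their ratios of -0.38 and 0.40 and of -0.18 and 0.48 also had opposite signs. XTH26 (AT4G28850), another gene of root hairs, had 1.09 and -1.43. For the dim members the mean of both experiments lay between -0.33 and 0.34, with errors of 0.81 to 2.53, and it bears on no change of these genes. The difference between the experiments exceeded 1 on the log2 scale for 10 of the 16 dim members on the deposited ratios and for 0 of them after normexp correction with an offset of 50 and loess, a correction that shrinks dim ratios. Of all 3398 gene probes with fewer channels, 1488 exceeded this limit on the deposited ratios and 1 after the correction.

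**Figure D3:**
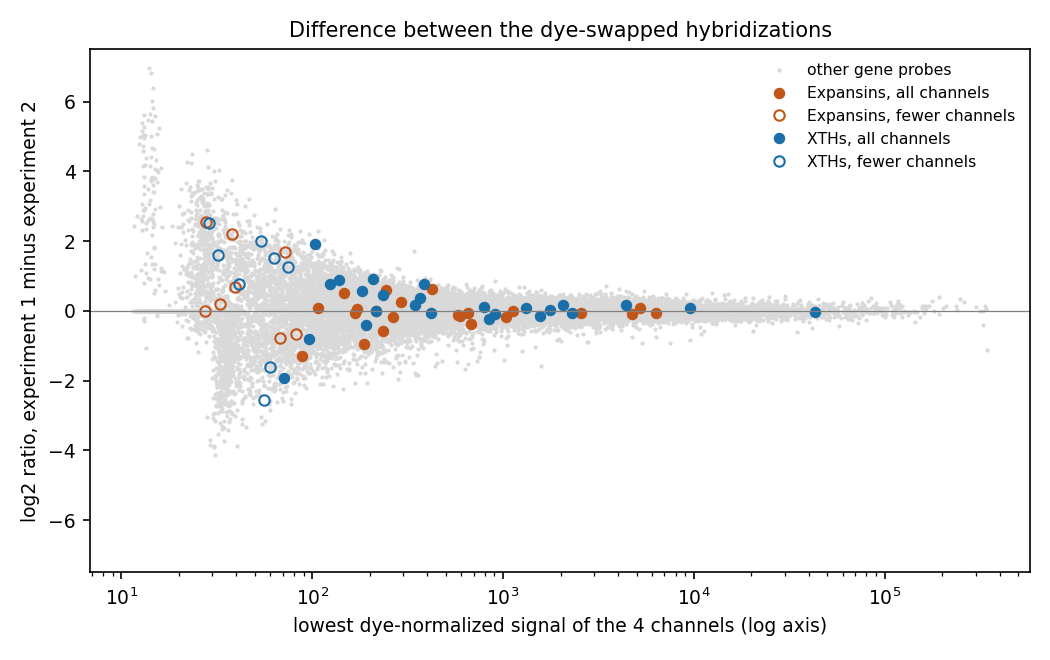
Difference of the log2 ratios between experiment 1 and experiment 2 (vertical) against the lowest dye-normalized signal of the 4 channels (horizontal, log axis) for other gene probes (grey), members in all 4 channels (filled) and members in fewer channels (open). Members with low signals spread to more than 2 log2 units in either direction, and those with high signals, such as XTH9 (0.015 in experiment 1 and 0.041 in experiment 2), stay near 0.

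Several members stand next to each other in the genome, at most 2 places apart in the RefSeq order of genes. The largest such run holds 6 expansins on chromosome 5, EXPA21 to EXPA26. Only EXPA21 and EXPA26 of these were measured in all 4 channels, and the 6 means lay between -0.32 (EXPA25) and 0.34 (EXPA23), each smaller than its error. A run of 4 on the same chromosome holds XTH12, XTH13, XTH25 and XTH22. XTH13 (AT5G57540) and XTH22, measured with an error of 0.12, had means of -0.024 and -0.13, and the other two had errors of 0.81 and 1.11. On chromosome 4, the neighbours XTH24, XTH18 and XTH19 had means of 0.13, -0.15 and -0.071, with errors of 0.45, 0.12 and 0.14. XTH23 had 0.27 (error 0.26) and XTH14 had -0.0078 (error 0.72). XTH1 had 0.20 (error 0.56) and XTH2 had -0.20 (error 0.96). Neighbours of such families are often close copies, and whether a probe also binds the transcript of a paralog was not tested.

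No difference between the families held on both arrays. The median log2 ratio was 0.0039 for the expansins and -0.024 for the XTHs, beside -0.00059 for all gene probes, and the difference of medians was 0.028. It was -0.19 in experiment 1 and 0.13 in experiment 2, so its sign turned with the dyes. In experiment 1 the XTHs had a median of 0.16 and the expansins one of -0.031, and in experiment 2 the medians were -0.15 and -0.014. Among the members in all 4 channels, Cy5 was the brighter dye for 16 of 25 XTHs and for 7 of 22 expansins. The same count over all gene probes was not made, so these counts have no reference, and a difference of the families by dye was not tested. The dye part of the ratio had a median size of 0.090 for these XTHs and 0.066 for these expansins. Both are smaller than the median errors of the mean, 0.24 and 0.26. With probes in all 4 channels only, the median log2 ratios of expansins and XTHs were -0.013 and -0.024. After normexp correction with loess they were -0.0077 and -0.0078 over all members. On the deposited ratios in all 4 channels, the median size of a mean ratio was 0.10 for the expansins and 0.12 for the XTHs. For all gene probes there it was 0.082. After normexp correction with loess these sizes were 0.043, 0.063 and 0.053.

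The genes that make and trim xyloglucan, the substrate of the XTHs, were compared as a list of 18, and all 18 had a probe. None of them met the call rule in either direction, beside 0.242% lower and 0.502% higher of all gene probes. In a list of this length 0 calls is close to the background. Of the 15 measured in all 4 channels, 13 had a mean above 0 and 2 below. Their median log2 ratio was 0.065 beside -0.0047 for all gene probes in all 4 channels. In both experiments 8 of the 15 were higher in cuc1 cuc2 and 2 were lower, and 5 had opposite signs. The shares among all gene probes in all 4 channels were 26.1%, 26% and 47.9%. Over the 18 probes the median was 0.10 in experiment 1 and 0.014 in experiment 2. The values were small, for example 0.12 (error 0.12) for XYL1, an alpha-xylosidase that trims the chains, 0.16 (error 0.12) for the xylosyltransferase XXT1 and 0.12 (error 0.16) for the galactosyltransferase MUR3. The xylosyltransferase XXT5 had -0.091 (error 0.16). Among the backbone synthases, CSLC12 had 0.025 and CSLC6 had 0.097, and CSLC4, which makes most of the backbone in other tissues, was not well above background in any channel.

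In the list of 14 genes of cellulose synthesis, each measured in all 4 channels, 0 were called, beside 0.242% lower and 0.502% higher of all gene probes. Of the 14 genes, 10 had a mean below 0 and 4 above. Their median was -0.049, from -0.065 in experiment 1 and 0.0077 in experiment 2. In both experiments 4 of the 14 were lower in cuc1 cuc2 and 2 were higher, and 8 had opposite signs. Among all gene probes in all 4 channels these shares were 26%, 26.1% and 47.9%. The subunits of the primary wall complex, CESA1, CESA3 and CESA6, had means of -0.17, -0.038 and -0.14. CESA6 had -0.45 in experiment 1 and 0.18 in experiment 2, and CESA1 had -0.32 and -0.019. The interval of each of the 14 genes included 0.

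**Figure D4:**
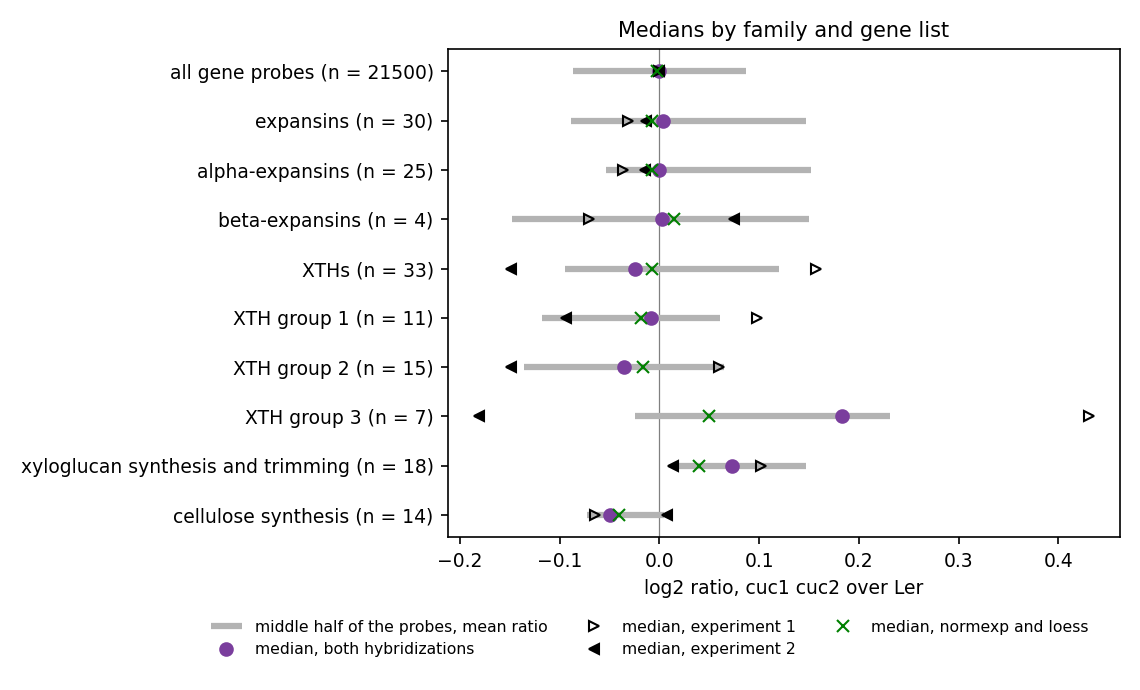
Median log2 ratio of cuc1 cuc2 over Ler for all gene probes, the families, their subfamilies and both lists of other wall genes; purple circles are medians of the mean ratio, triangles those of single experiments, green crosses those after normexp correction with loess, and grey bars span the interquartile range of the probes. The XTH medians of 0.16 and -0.15 in the single experiments lie on either side of 0, and the median of both is -0.024.

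Some genes that RefSeq names as expansin-like carry other words in their array description and were not among the members. EXLA1, EXLA2 and EXLA3 had mean log2 ratios of -0.044, -0.057 and 0.020, and EXLB1, EXLB2 and EXLB3 had -0.14, -0.042 and 0.017. EXLB1 was not well above background in any channel and EXLA3 in 1 channel only. None of the 6 was called, beside 0.242% lower and 0.502% higher of all gene probes, and each mean was smaller than its error.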

How the data were processed

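Total RNA from about 100 embryos each of Ler and cuc1-1 cuc2-1, excised in 6% glucose, was labelled as cRNA and hybridized to 2-colour oligonucleotide arrays. The authors deposited the output of Feature Extraction 7.5.1, in which the deposited intensity values are spot and background brightness and background-subtracted, detrended, dye-normalized signals. Cy5 over Cy3 and its error are deposited as log10 values, each with a deposited p-value from the software's error model for 1 array. The authors' series table holds these log10 ratios as mutant over wild type, and no entry was further than 5e-10 from the scanner files.

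Here log2 ratios of mutant over wild type were averaged over both arrays, the error of a mean combined both errors, and 95% intervals were the mean ± 1.96 errors. Control spots (913 positive and 162 negative of 22575) were left out. Experiment 1 is technical replicate 2 of the sample records and experiment 2 is replicate 1. The number of arrays and the brightness of the probes limit the precision: median brightness over the gene probes was 202 to 244, above a median background of 65 to 72. With 1 extract per genotype no test across replicates and no set test was made. The call rule was a deposited p-value under 0.01 with the same sign on both arrays, as in the study's methods, and its code was tested on simulated data.

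The genes to be named were, in each family, the 5 highest and 5 lowest means among members in all 4 channels, any called member and any member detected in 1 genotype only. Others were named for their role, detection or place beside other members after their values had been seen. The members and lists were chosen with earlier results of these data known. Alternatives were normexp with loess, normexp with median centring, no correction with loess and subtraction with loess (limma 3.58.1 in R 4.3.3), other call rules, filters on dim probes, family membership by RefSeq names and each array alone. Gene names came from RefSeq for assembly TAIR10.1, with 21191 of 21500 identifiers matched. As the build behind the probes is not given in the sources used here, no coordinates are printed, and no probe or protein sequences were used. Other computations used pandas 2.3.3, numpy 2.4.6 and scipy 1.17.1 under Python 3.11.15, and plots were made with matplotlib 3.10.9.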

Additional observations from a re-analysis of the deposited data

How the results depend on the processing

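The counts of called members stayed at 0 in both families and directions under other p limits, a log2 limit of 0.5 on the deposited or normexp ratios, filters on dim probes, membership by RefSeq names and each array alone (0 to 0). Only the interval of the mean, a measure added after the data had been seen, gave other counts, with 0 lower and 1 higher expansin and 2 lower and 1 higher XTHs. By that measure 2.8% of the gene probes in all 4 channels were lower and 4.67% higher. The expansin median of 0.0039 moved by more than the spread between the arrays, to -0.026 with normexp and median centring, -0.010 with plain subtraction and loess, and -0.013 both with probes in all 4 channels and with membership by RefSeq names. With each array alone it ranged from -0.031 to -0.014. The XTH median ranged from -0.15 to 0.16 with each array alone and the difference of medians from -0.19 to 0.13. No alternative moved these by more than the spread between the arrays, which is 0.22 and 0.23. For the expansin median this spread was 0.012, so the medians were held to unlike limits. The single arrays set these limits, so their own values are no separate check. Of the 20 genes chosen by rule, EXPA7, EXPA14, EXPA21, EXPA26, XTH1, XTH3, XTH8 and XTH12 had a mean of different sign under at least one setting or on 1 array alone, and the others kept theirs. No paired analysis was possible because the only replicates are the arrays of a single pair of extracts. The single extract per genotype limits the comparison for every member, and 16 of 63 were not well above background in every channel.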

Other observations

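Other wall proteins that the arrays describe were counted in the same way, by a search of the probe descriptions made after the expansin and XTH values had been seen. Extensins, structural glycoproteins of the wall, had 31 probes, of which 28 were in all 4 channels. Of these, 12 were lower and 2 higher in cuc1 cuc2 in both experiments, beside 26% and 26.1% of the gene probes in all 4 channels, with a median log2 ratio of -0.065, and 0 were called in either direction. Arabinogalactan proteins had 39 probes and 0 called genes, and the means of the 35 in all 4 channels extended from -0.22 to 0.48 with a median of -0.017. Cellulose synthases and related proteins had 23 probes and 0 called genes, with a median of -0.027 over the 21 in all 4 channels. Over all gene probes 0.242% were called lower and 0.502% higher, so 0 calls in lists of these lengths is close to the background.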
